A study of Rattus norvegicus with 10 samples.

Results

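Core promoters, the stretches of DNA directly around transcription start sites, were described in 2640 regions of a DNA methylation table of 8957 regions from the rat hypothalamus. A region was counted as a core promoter where it lay on a numbered chromosome, carried the authors' annotation promoter-TSS, and had its given distance to the start site within 300 bases on either side. The rule used position and annotation only. Another 714 promoter regions lay farther than 300 bases away, and 1151 regions were annotated to first exons. These 2 classes, beside the whole table, serve as comparisons below.

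The animals were 10 Wistar rat offspring, and the tissue was the arcuate nucleus, the hypothalamic cell group that senses circulating signals and governs feeding. Their fathers arrived at postnatal day 21, received either high-fat food or chow, and were mated at postnatal day 90 to 100 with females fed chow. Litters were adjusted at postnatal day 2 to at most 8 pups. Every offspring, controls included, had chow up to postnatal day 35 and switched to the high-fat diet until postnatal day 70, and the father's diet was the labelled difference. Paternal high-fat animals are named 22HFB, 22HFR, 24HFB, 26HFB and 28HFB, and paternal chow animals 2HFB, 4HFB, 6HFBB, 6HFB and 8HFB, as the columns name them. The letters HF occur in the names of both groups. In each group 2 names share a leading number (22 and 6), and whether such animals are littermates is not stated. Litter, sire and sex are not stated either, so a p-value here covers only the variation among the 10 samples. No file used here reads RNA or cell type markers, so the tissue label and the cell composition could not be checked, and a change in methylation and a change in the mix of cells cannot be told apart.

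Most promoters of housekeeping and developmental genes in mammals lie in CpG islands, stretches rich in the dinucleotide CG that are normally free of methylation. Methylation of a CpG island promoter goes with stable silencing, as at imprinted genes, germline genes and the inactive X chromosome, while promoters poor in CpGs vary in methylation between tissues. Reduced representation bisulfite sequencing reads fragments cut at a CpG-containing site, so it samples CpG islands heavily. The value of a region is its methylation level, the percent of reads that kept a methylated cytosine, averaged over its CpGs in 1 animal.

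The core promoter regions belonged to 2275 genes and 2329 start sites, and 2532 of them were annotated to protein-coding genes, 37 to lincRNAs, 25 to miRNAs and 20 to pseudogenes. A region was short, with a median length of 62 bases (range 10 to 699) and a median of 12 CpGs (range 10 to 39). An even CpG number was given for 75.6% of the regions, and 50 regions listed more CpGs than 1 strand of their length can hold, so the file appears to count the CpG of each strand. Upstream positions, with a negative distance, held 1498 of the regions, and 1142 lay at or after the start site. Levels were missing 37 times, 24 of them in 4HFB. Coverage is unknown for every level, so no counting error can be given, and each printed error is the variation among animals. The authors chose the regions from these animals' own data, since no deposited group difference among these regions was under 1 percentage point. No test on them is therefore independent evidence of a difference.

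The CpG density of these promoters is described from reference sequences. RefSeq windows (assembly GRCr8) from 250 bases before to 50 bases after a start site were matched by gene symbol or synonym for 1762 of the 2185 protein-coding genes with a core promoter region. Their median number of CpGs was 27 (quartiles 20 and 35), against 12 (quartiles 4 and 24) for all 19005 protein-coding windows of that table. At least 10 CpGs were present in 94.8% of the matched windows and in 55.0% of all windows. The median G+C content was 66.3% against 55.3%, and the median ratio of observed to expected CpGs 0.853 against 0.549. Both groups of windows hold 1 start site per gene, and the matched windows are also part of all windows. A gene entered the set only through a region with at least 10 listed CpGs, by an assay that samples CpG islands heavily. The higher CpG number was therefore largely built into the set and is not a result about these promoters.

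Windows are shown for 4 promoters with a higher mean in the paternal high-fat group, those with the smallest unadjusted limma p among the genes named below for a deposited q under 0.05 or for groups apart. Only genes with 1 window in the table were eligible. CpGs are in capitals, and each window runs 5′ to 3′ on the strand of the gene. Windows with fewer than 10 CpGs were left out too. The build of the file's coordinates is not given, so the measured region was not placed within the window.
Ndufa9 (chr4:161374121-161374420, minus strand): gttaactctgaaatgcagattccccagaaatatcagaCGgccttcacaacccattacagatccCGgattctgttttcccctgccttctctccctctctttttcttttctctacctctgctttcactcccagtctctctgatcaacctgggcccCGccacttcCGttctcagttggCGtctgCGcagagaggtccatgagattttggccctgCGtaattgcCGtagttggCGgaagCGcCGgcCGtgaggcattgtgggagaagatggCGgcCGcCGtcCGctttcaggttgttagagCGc
Ube2z (chr10:81513592-81513891, minus strand): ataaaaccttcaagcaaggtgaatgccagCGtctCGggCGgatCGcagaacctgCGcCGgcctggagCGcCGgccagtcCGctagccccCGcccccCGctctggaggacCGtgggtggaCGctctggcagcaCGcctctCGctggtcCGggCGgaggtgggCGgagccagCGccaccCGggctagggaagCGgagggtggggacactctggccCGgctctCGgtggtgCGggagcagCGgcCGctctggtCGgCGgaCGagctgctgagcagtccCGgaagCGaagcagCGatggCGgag
Ddx21 (chr20:31097189-31097488, minus strand): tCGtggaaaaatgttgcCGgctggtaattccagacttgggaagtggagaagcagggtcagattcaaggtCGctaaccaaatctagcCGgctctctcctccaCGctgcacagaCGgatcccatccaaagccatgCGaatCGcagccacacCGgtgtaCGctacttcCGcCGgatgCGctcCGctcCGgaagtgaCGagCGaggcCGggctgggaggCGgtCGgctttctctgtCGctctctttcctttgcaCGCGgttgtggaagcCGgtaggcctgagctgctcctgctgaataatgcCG
Mfsd6l (chr10:53757427-53757726, plus strand): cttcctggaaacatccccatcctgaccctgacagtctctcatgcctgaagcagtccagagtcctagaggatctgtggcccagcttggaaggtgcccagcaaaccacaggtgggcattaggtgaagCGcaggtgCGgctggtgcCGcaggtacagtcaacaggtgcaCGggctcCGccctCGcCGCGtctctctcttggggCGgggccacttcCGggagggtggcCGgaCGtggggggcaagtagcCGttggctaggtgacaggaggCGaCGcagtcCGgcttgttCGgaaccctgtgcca
The windows of Ndufa9, Ube2z, Ddx21 and Mfsd6l hold 17, 33, 25 and 17 CpGs, so Ndufa9 and Mfsd6l lie below the lower quartile of the set. The promoters of Smim7 and Fstl3, which had a lower mean in the paternal high-fat group, are shown for contrast in direction.
Smim7 (chr16:17308216-17308515, plus strand): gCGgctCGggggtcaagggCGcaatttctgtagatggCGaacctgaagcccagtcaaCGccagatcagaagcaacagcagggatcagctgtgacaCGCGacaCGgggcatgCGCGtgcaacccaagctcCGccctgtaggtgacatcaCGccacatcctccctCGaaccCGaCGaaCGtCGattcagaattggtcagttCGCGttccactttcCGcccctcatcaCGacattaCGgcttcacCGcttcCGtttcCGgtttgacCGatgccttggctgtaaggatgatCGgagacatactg
Fstl3 (chr7:10579795-10580094, minus strand): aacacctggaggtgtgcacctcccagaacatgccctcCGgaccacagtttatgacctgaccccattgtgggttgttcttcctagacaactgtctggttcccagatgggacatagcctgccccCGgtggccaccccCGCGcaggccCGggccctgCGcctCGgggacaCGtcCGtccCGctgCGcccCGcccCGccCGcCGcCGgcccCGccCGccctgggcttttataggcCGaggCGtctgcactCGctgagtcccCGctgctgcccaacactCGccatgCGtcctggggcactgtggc
These hold 27 and 24 CpGs. The last window is that of Il17d, 1 of 3 core promoters with a mean level over 80%.
Il17d (chr15:35786648-35786947, plus strand): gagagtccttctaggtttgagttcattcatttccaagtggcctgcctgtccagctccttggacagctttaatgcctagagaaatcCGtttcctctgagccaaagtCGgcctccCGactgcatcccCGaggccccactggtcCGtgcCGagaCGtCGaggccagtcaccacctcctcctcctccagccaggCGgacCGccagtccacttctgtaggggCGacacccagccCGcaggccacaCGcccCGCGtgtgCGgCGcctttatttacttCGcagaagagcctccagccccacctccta
It holds 18 CpGs, below the median of the set, and its levels are given with the other highly methylated promoters below.

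Short motifs were searched on both strands of the same windows. The Sp1 GC box GGGCGG was present in 75.3% of the 1762 windows and in 43.1% of all 19005. The ETS site CCGGAAG was in 20.9% against 11.2%, the NRF1 core CGCATGCG in 4.09% against 2.24%, the YY1 core AAGATGGCG in 3.69% against 2.29%, the E-box CACGTG in 9.48% against 7.27%, and the cyclic AMP element TGACGTCA in 3.41% against 2.22%. The shorter core TGACG, which every full element also contains, was in 34.2% against 24.2%. The TATA box TATAAA was in 4.88% against 13.1% and the CCAAT box CCAAT in 32.3% against 38.4%. The 7 motifs that contain CG were thus listed more often, and the 2 without CG less often, in this set of CpG-rich windows. Since the set was CpG-rich by the way it arose, these contrasts are a description only. Among the 483 matched genes whose core promoter regions were all lower in the paternal high-fat group, the Sp1 box was in 74.1%, the ETS site in 20.1% and the TATA box in 4.35%, and the median number of CpGs was 26. Of the printed windows, Ndufa9 contains the YY1 core, Ube2z the Sp1 and ETS letters, Ddx21 the ETS and TGACG letters, Mfsd6l the Sp1 and ETS letters, Smim7 the CCAAT and Sp1 letters, and Fstl3 the TATA and Sp1 letters. Il17d contains none of the 9 motifs. A match is a run of letters and not a site shown to be bound.

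Core promoters were close to unmethylated in both groups. The mean level over the 10 animals had a median of 2.03% over the 2640 regions, and 2481 of them, or 94.0%, lay at or below 5%, against 81.1% of all regions in the table. Means over 20% were found at 31 core promoter regions, 23 of them higher in the paternal high-fat group. The lowest mean was 0.468% and the highest 94.6%.

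Small differences in 1 direction were common among these regions, which held no deposited group difference under 1 percentage point. The mean was higher in the paternal high-fat group at 1844 core promoter regions and lower at 796, which puts 69.8% in the higher direction (Clopper-Pearson 95% interval 68.1 to 71.6%). Over all 8957 regions the share was 71%, over upstream promoter regions 71.8% (interval 68.4 to 75.1%) and over first-exon regions 69.1% (66.3 to 71.7%). These intervals treat regions as independent although all come from the same 10 animals. The share at start sites lies near the share of the whole table and is not a result about core promoters. The median difference was 1.32 percentage points at core promoters, 1.37 at upstream promoter regions, 1.40 at first-exon regions and 1.41 over the table. The choice of regions by their differences in these same animals shapes these medians. A difference of 5 points or more was seen at 46 core promoter regions, 40 of them higher, which is 1.74% against 6.59% of all regions. The extremes were a hair keratin gene, Krt83, 11.6 points higher, and Evpl, which encodes the cell envelope protein envoplakin, with a difference of -8.13 points; both promoters had intermediate levels and overlapping groups.

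**Figure D1:**
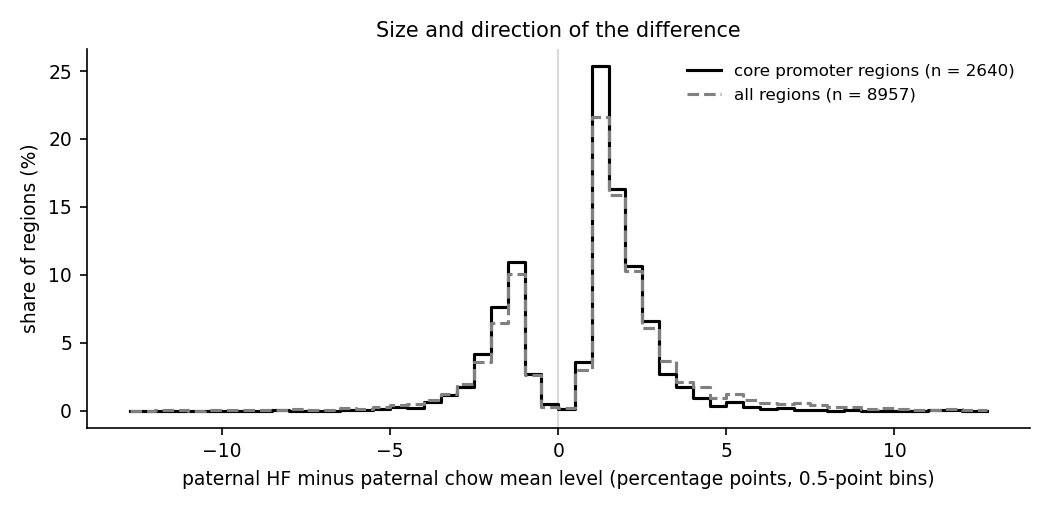
Share of regions (vertical axis, percent) by the paternal high-fat minus paternal chow difference in mean methylation level (horizontal axis, percentage points, in steps of 0.5), for the 2640 core promoter regions (solid line) and all 8957 regions (dashed line). Both lines have a larger peak at differences of 1 to 1.5 points on the higher side, with 25.3% of core promoters and 21.6% of all regions, and core promoters have fewer differences of 5 points or more. The core promoter regions held no deposited group difference under 1 point, so the dip around 0 comes from how they were chosen.

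Of the core promoter regions none passed limma with Benjamini-Hochberg adjustment at 0.05 over all 8957 regions, where the called share was 0% too, and the smallest adjusted p was 0.235. At an unadjusted limma p under 0.05 there were 561 core promoter regions, 21.25% of them, with 437 higher and 124 lower. The background over the table was 20.9%, made up of 16.4% higher and 4.52% lower. The groups did not overlap at 143 core promoter regions, 5.42%, of which 106 were higher and 37 lower in the paternal high-fat group. Over the table the shares were 5.15% in either direction, 3.93% higher and 1.22% lower. By the authors' deposited table, a q under 0.05 was held by 29 core promoter regions, or 1.10%, with 27 higher and 2 lower, against 0.848% of all regions, 0.737% higher and 0.112% lower. All these shares lie near the background. On the unadjusted limma p, 22 of those 29 regions were under 0.05, and at 10 of them the groups did not overlap.

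The levels of single animals show where the shift sits. The mean over core promoters was 2.62, 4.14, 2.92, 3.62 and 3.06% in 22HFB, 22HFR, 24HFB, 26HFB and 28HFB, and 2.25, 2.89, 2.45, 2.5 and 2.16% in 2HFB, 4HFB, 6HFBB, 6HFB and 8HFB. The groups averaged 3.27 ± 0.604% and 2.45 ± 0.284% (SD, n = 5 each), and they overlapped, since 4HFB stood above 22HFB. The median over core promoters was 1.52, 2.94, 1.89, 2.27 and 2.07% in the paternal high-fat animals and 1.01, 1.12, 1.46, 1.37 and 1.18% in the paternal chow animals, in the same order, and these did not overlap. The highest mean in the paternal chow group therefore came from an animal whose median was among the lowest. Over all 8957 regions the groups averaged 7.23 and 6.13%, a difference of 1.10 points against 0.823 at core promoters. The animals' medians over all regions, 2.03 to 3.67% against 1.44 to 1.91%, did not overlap either. The shift is therefore not particular to core promoters. The authors chose the regions from these same animals' data, so medians that lie apart are no independent evidence of a shift.

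**Figure D2:**
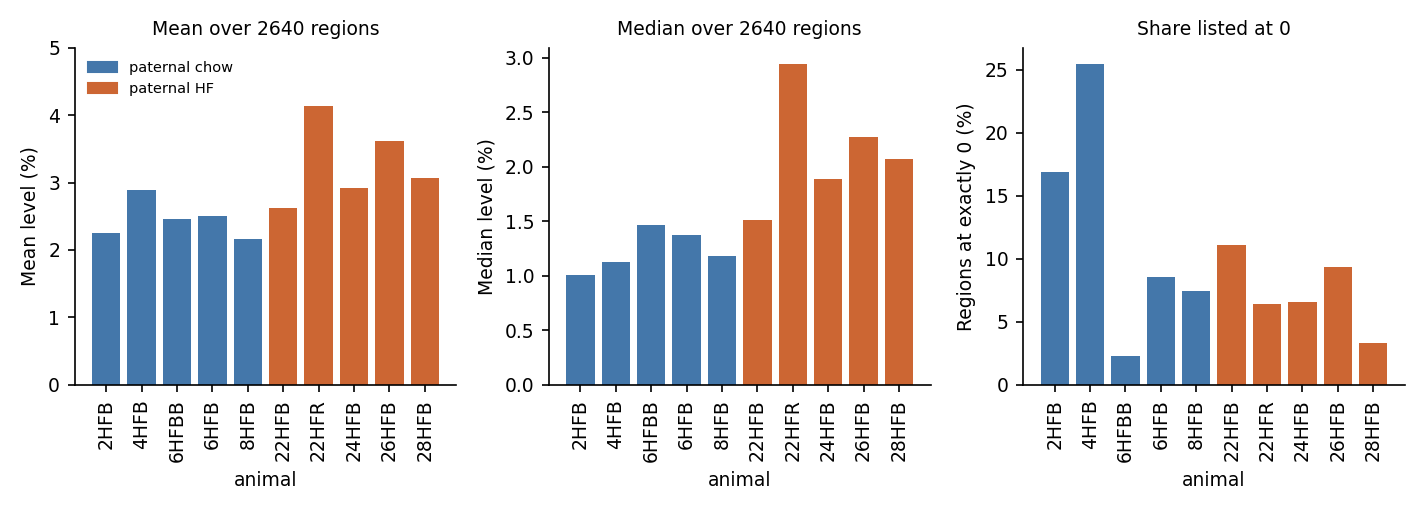
Bars give, for each animal over the core promoter regions, the mean level, the median level and the share of regions listed at 0 (vertical axes, percent), with paternal chow animals in blue and paternal high-fat (HF) animals in orange. The medians of the groups do not overlap, the means do, and 4HFB has the largest share at 0, 25.5%.

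Animal 4HFB had both more zeros and more high values than the other paternal chow animals. Its level was 0 at 25.5% of core promoters and over 5% at 17.7%, while the other 4 paternal chow animals ranged from 2.31 to 16.9% and from 6.82 to 9.20%. In the paternal high-fat group the share at 0 ranged from 3.30 to 11.1% and the share over 5% from 10.5 to 26.5%, highest in 22HFR. The spread between animals was larger in the paternal high-fat group at 66.6% of the core promoters, with a median SD of 1.62 against 1.05 points. Over the whole table this was so at 65.2% of regions, with 1.79 against 1.23 points. The share was 67.2% at upstream promoter regions and 65.5% at first-exon regions, so it is not particular to core promoters.

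The highest animal of a group was often the same one. Over all core promoters 4HFB was the highest paternal chow animal at 26.6% and 22HFR the highest paternal high-fat animal at 34.8%. Split by direction, which uses the same values and is a description only, the shares were as follows. Of the 796 lower regions, 4HFB was the highest paternal chow animal at 374, or 47.0%, and its mean over them was 5.49% against 2.72 to 3.4% in the other paternal chow animals. Among the 112 regions lower by 2.5 points or more, a limit chosen after the values were seen, 4HFB was highest at 75, or 67.0%. Of the 1844 higher regions, 22HFR was the highest paternal high-fat animal at 717 (38.9%) and 26HFB at 488 (26.5%). Without 4HFB 1895 regions were higher, 71.8%, without 22HFR 68.4%, and without both 22HFR and 4HFB the share was 70.1% and the median difference 0.974 points. Over all regions the shares higher were 72.3, 69.8 and 70.6% in the same order. The part of these animals' depth or DNA quality in these values was not tested.

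**Figure D3:**
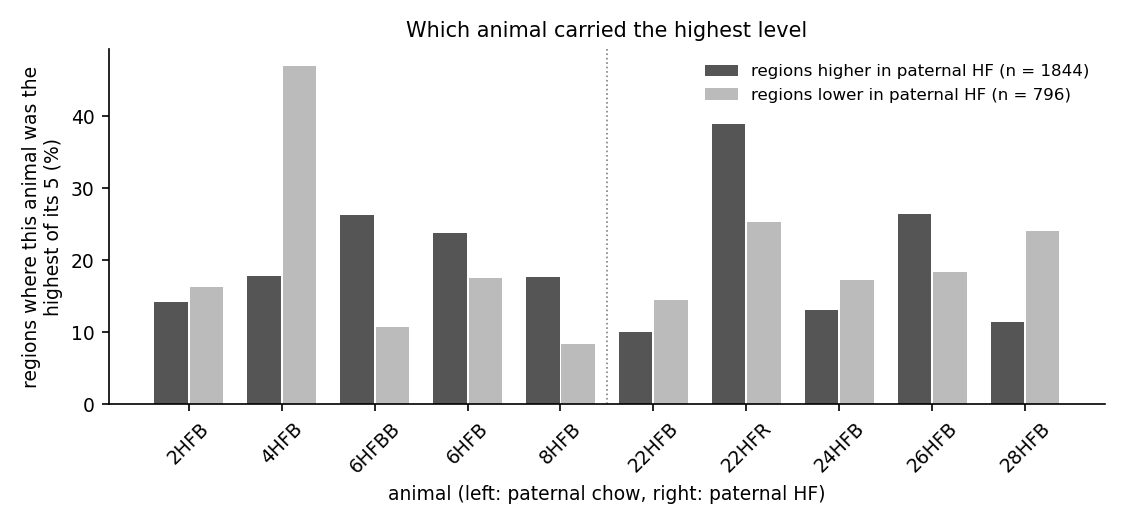
For each animal (horizontal axis, paternal chow left and paternal high-fat, HF, right of the dotted line), bars give the percent of regions at which it was the highest of its group of 5, for the 1844 regions higher (dark) and the 796 lower (light) in the paternal high-fat group. The tallest light bar on the left is 4HFB at 47.0%, and the tallest dark bar on the right is 22HFR at 38.9%.

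Position around the start site was compared in steps of 100 bases. The share of regions higher in the paternal high-fat group was 66.3% of 309 at 201 to 300 bases upstream, 70.4% of 433 at 101 to 200 bases upstream and 71.8% of 756 in the last 100 bases before the start. After the start site it was 69.8% of 978 in the first 100 bases, 69.8% of 106 at 101 to 200 bases and 58.6% of 58 at 201 to 300 bases. The outermost downstream step rests on the fewest regions and the order of the others was not tested. Deposited q values under 0.05 were found in 14 regions of the last 100 bases upstream, or 1.85%, and 10 of the first 100 downstream, or 1.02%. The next steps held 3 upstream, or 0.693%, and 2 downstream, or 1.89%, and the outermost steps none. Over all regions the share was 0.848%. Such regions are too few to order the steps by them. By chromosome the share higher ranged from 59.0% on chromosome 18 to 76.0% on chromosome 20. At the limit of 300 bases, Anks6 and Frmd6 lay just inside at 300 bases upstream, with differences of 1.14 and 1.40 points. Just outside at 301 bases downstream were Adamts2, with 3.76 points, and Crtc3, with 1.49 points.

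**Figure D4:**
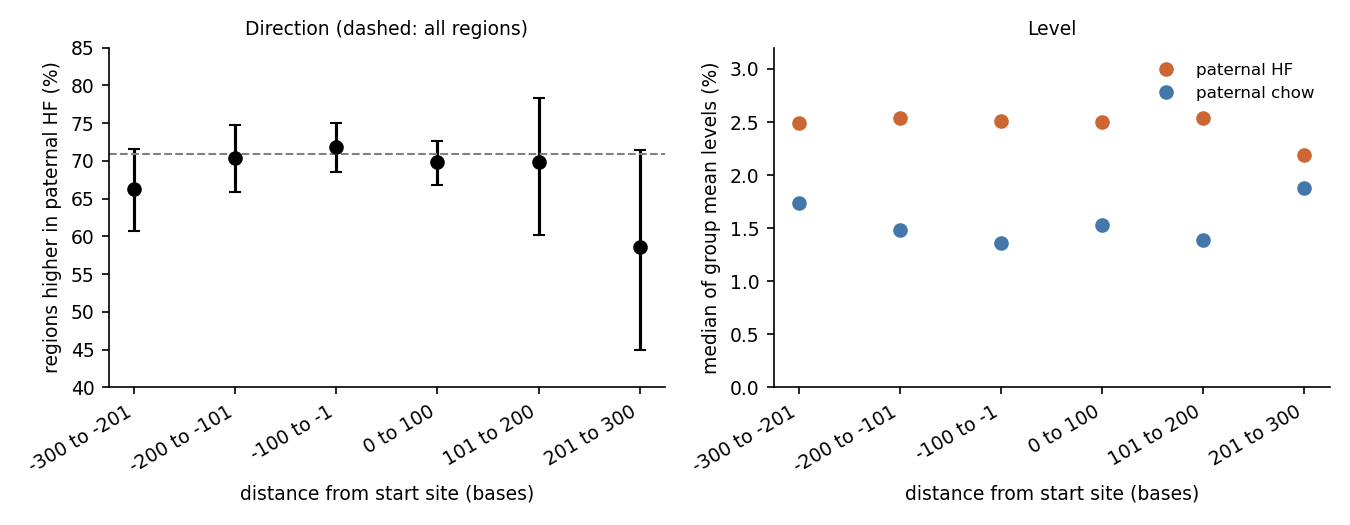
Left, the percent of core promoter regions with a higher mean in the paternal high-fat (HF) group by distance from the start site in bases, with Clopper-Pearson 95% intervals over regions as bars and the share of all regions as a dashed line. Right, the median over regions of each group's mean level (percent), which is higher in the paternal high-fat group in each of the 6 steps.

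Among the regions with the authors' deposited q under 0.05, the 27 higher ones had paternal chow means between 0.119 and 1.96% and paternal high-fat means between 1.62 and 7.78%. Since that q chose them from these animals, their values are a description.

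Of these 29 regions 1 each was on the lists of DNA methylation and Polycomb or Trithorax genes, of DNA repair genes and of respiratory chain genes. These were Cbx2, Fancg and Ndufa9, and other genes are described beside them by what they encode. Cbx2, a Polycomb protein that binds methylated histone H3 (chromosome 10, 108131955 to 108132016, 13 CpGs), measured 6.83, 2.26, 1.14, 5.66 and 12.3% in the paternal high-fat animals and 0, 0, 0.615, 1.16 and 0.321% in the paternal chow animals. All but 24HFB stood above every paternal chow animal, and the highest, 28HFB, stood well above the rest. Carm1, an arginine methyltransferase of histones, averaged 4.27 ± 2.20% against 0.941 ± 0.995%, Smarcc1, a subunit of the SWI/SNF remodelling complex, 3.96 ± 2.56% against 1.60 ± 0.741%, and Cecr2, a bromodomain protein of remodelling complexes, 3.85 ± 2.54% against 0.712 ± 0.279% (SD, n = 5 each). Of these 3, Cecr2 alone had groups that did not overlap.

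Fancg, a protein of the Fanconi anaemia pathway for DNA crosslink repair (chromosome 5, 58455927 to 58455996, 10 CpGs), measured 1.20, 11.9, 7.97, 2.30 and 4.65% in the paternal high-fat animals against 0.597, 0, 1.07, 0.169 and 0% in the paternal chow animals. The lowest paternal high-fat animal was only just above the highest paternal chow animal. Terf1, which binds telomere repeats, had the largest mean difference of the 29, 7.03 ± 3.02 points (SE), with 9.89, 21.2, 0, 0.889 and 6.90% against 0, 1.03, 1.52, 0.247 and 0.952%. Its mean was set by 22HFR, 22HFB and 28HFB, while 24HFB was at 0, and without 22HFR the difference was 3.67 points. Wdr48, a partner of the deubiquitinase USP1, was 2.38 ± 1.53% against 0.377 ± 0.0816% with groups apart.

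Ndufa9, a subunit of respiratory complex I (chromosome 4, 159399559 to 159399603, 10 CpGs), measured 5.83, 8.10, 1.82 and 6.36% in 22HFB, 22HFR, 24HFB and 28HFB and had no value in 26HFB. In the paternal chow animals it measured 0.909, 0, 0, 1.33 and 0%, so the groups did not overlap. The difference was 5.08 ± 1.21 points (SE; n = 4 and 5), with an adjusted limma p of 0.235 by Benjamini-Hochberg. Rims1, a scaffold of the presynaptic active zone (chromosome 9, 28973054 to 28973099, 10 CpGs), measured 6.21, 2.83, 5.35, 7.27 and 2.91% against 0.312, 0.825, 1.10, 2.29 and 1.18%. These groups did not overlap either, and the difference was 3.78 ± 1.05 points (SE). Mycbp, a binding partner of the MYC transcription factor (chromosome 5, 141560140 to 141560217, 20 CpGs), measured 5.31, 5.80, 0.499, 6.82 and 3.78% against 0.925, 0, 0.265, 0.620 and 0.763%. Animal 24HFB lay within the paternal chow range there.

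The remaining higher regions were of mixed function. Triobp, an actin-binding protein, averaged 3.10 ± 0.673% against 1.07 ± 0.732% and Calu, a calcium-binding protein of the secretory pathway, 3.68 ± 1.84% against 0.798 ± 0.616%, both with groups apart. The region of the guanine nucleotide exchange factor Vav2, the membrane lipid flippase subunit Tmem30a and the ankyrin protein Ankrd40 had groups apart too. Without 22HFR the difference at Tmem30a moved from 3.35 to 2.15 points, and without 28HFB that at Ankrd40 from 3.02 to 2.00. Mcm3ap, a factor of mRNA export from the nucleus, averaged 5.79 ± 2.5% against 1.30 ± 0.868%, with 24HFB inside the paternal chow range. At Tut7, an enzyme that adds uridines to RNA ends, U2af1, a splicing factor, Fkbp1b, a partner of ryanodine receptors, Dnajc14, a chaperone of the DnaJ family, Ankrd39, Phf13, Klf16, Gfod2, Erlin2 and the unnamed gene AC139608.1 the groups overlapped as well.

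The 2 regions with a deposited q under 0.05 and a lower mean were at Rtn4rl1 and Plekhm2. Rtn4rl1, a receptor of the Nogo receptor family (chromosome 10, 62035742 to 62035826, 16 CpGs), measured 1.40, 5.94, 0.521, 0.329 and 0.272% in the paternal high-fat animals and 0.794, 7.0, 2.95, 7.11 and 5.00% in the paternal chow animals. Animal 22HFR stood with the paternal chow animals and 2HFB with the paternal high-fat animals. Plekhm2, an adaptor between lysosomes and kinesin (chromosome 5, 160219905 to 160219955, 23 CpGs), measured 1.92, 0.597, 0.773, 1.27 and 1.03% against 1.68, 5.49, 3.39, 3.5 and 3.2%, with only 22HFB and 2HFB out of order. Over all 29 regions the adjusted limma p lay between 0.235 and 0.273 by Benjamini-Hochberg.

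Of the 10 largest higher differences with groups that did not overlap, 2 had a deposited q under 0.05, Fancg and Ndufa9, described above. Pdlim3, a muscle protein of the cytoskeleton (chromosome 16, 49574229 to 49574296, 10 CpGs), measured 13.2, 13.8, 12.3, 14.7 and 12.2% in the paternal high-fat animals and 6.06, 3.96, 4.90, 7.5 and 7.87% in the paternal chow animals. The groups were wide apart and each was tight. The difference of 7.21 ± 1.36 points (SE) had the smallest unadjusted limma p of the core promoters, 0.000109, and an adjusted p of 0.235, while the authors' deposited q was 1. An annotated miRNA gene, AC119762.1, averaged 13.8 ± 4.36% against 6.14 ± 1.42% and the collagen gene Col9a3 10.3 ± 1.75% against 5.90 ± 1.70% (SD, n = 5 each). Both had levels above those of most core promoters in either group.

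Other members of this group started from nearly unmethylated levels. Mfsd6l, a predicted transporter, measured 8.78, 4.64, 9.62, 15.1 and 4.56% against 2.31, 1.25, 3.14, 1.54 and 2.75%. Calb2, which encodes the neuronal calcium-binding protein calretinin, measured 8.31, 3.26, 9.04, 2.72 and 6.54% against 1.90, 2.43, 0.541, 1.37 and 1.43%. Ddx21, a nucleolar RNA helicase, measured 6.47, 3.89, 8.97, 3.47 and 3.68% against 0.981, 1.30, 1.99, 0.739 and 0.505%. In each of these 3 promoters the lowest paternal high-fat value was higher than the highest paternal chow value. Cds1, an enzyme of phospholipid synthesis, averaged 5.49 ± 3.32% against 0.958 ± 1.11%, and its lowest paternal high-fat value of 3.01% was close to the 2.85% of 8HFB.

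Lower regions with groups apart were led by Smim7, which encodes a small membrane protein (chromosome 16, 18975417 to 18975494, 10 CpGs). It measured 0, 0.481, 0, 0.333 and 0.345% in the paternal high-fat animals and 8.28, 4.17, 4.81, 5.03 and 2.02% in the paternal chow animals. The difference of -4.63 ± 1.06 points (SE) had an adjusted limma p of 0.235 by Benjamini-Hochberg, and here all 5 paternal chow animals took part. Fstl3, a secreted antagonist of activin (chromosome 7, 12810646 to 12810680, 14 CpGs), measured 1.65, 1.56, 0.965, 1.27 and 0.758% against 3.28, 7.34, 5.67, 1.81 and 4.21%. Its lower difference was likewise spread over several animals, although 6HFB was close to the paternal high-fat group.

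At some other lower regions, Vmp1, Elk4 and Pdss1 among them, 1 or 2 animals carried much of the paternal chow mean. Vmp1, a protein of autophagosome formation, measured 1.04, 0, 0, 0 and 0.621% against 1.56, 11.8, 1.05, 1.19 and 7.47%, and without 4HFB the difference moved from -4.28 to -2.49 points. Elk4, an ETS transcription factor, measured 9.83% in 4HFB and 0.648 to 3.27% in the other paternal chow animals. Without 4HFB its difference was -2.01 points, and that of Pdss1, an enzyme of coenzyme Q synthesis, -1.26 points, from -3.52 and -2.89 with all animals. Arrdc3, an arrestin-like protein, averaged 0.212 ± 0.299% against 3.66 ± 3.01%, Txndc15, a thioredoxin domain protein, 0.772 ± 0.71% against 3.64 ± 2.12%, and Wnt1, a secreted signalling ligand, 3.59 ± 1.04% against 6.43 ± 2.43% (SD, n = 5 each). Marchf7, a ubiquitin ligase, had no value in 4HFB and was 0.549 ± 0.531% against 3.65 ± 2.28% (n = 5 and 4). The differences at Txndc15 and Marchf7 were spread over more animals. At Txndc15 the paternal chow animals lay at 2.11 to 6.82% and the paternal high-fat animals at 0 to 1.43%. At Marchf7 these ranges were 1.25 to 6.46% and 0 to 1.11%. Without 4HFB the difference at Arrdc3 moved from -3.45 to -2.29 points, and without 2HFB that at Wnt1 from -2.84 to -1.77. The other paternal chow animals at Wnt1 lay at 4.85 to 5.79%, still above every paternal high-fat value there.

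**Figure D5:**
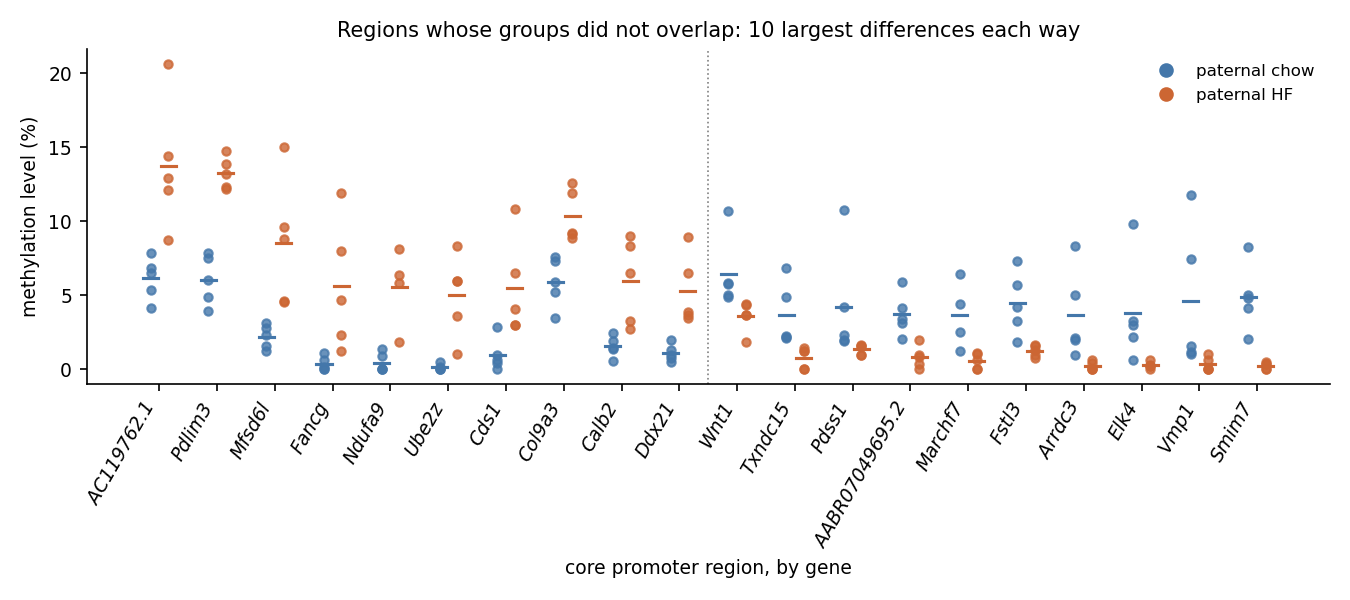
Methylation level (vertical axis, percent) of each animal at the 10 core promoter regions with the largest higher and the 10 with the largest lower differences among those whose groups did not overlap, by gene, with paternal chow animals in blue, paternal high-fat (HF) animals in orange and short lines at group means. Pdlim3 has tight groups far apart, whereas the paternal chow points of Vmp1, Elk4 and Pdss1 are spread out, with 4HFB highest at 11.8, 9.83 and 10.7%.

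Some promoters held several regions, which share their start site and are not independent. At 269 start sites with 580 regions in all, every region was higher at 120, every region lower at 26 and the directions were mixed at 123, or 45.7%. With 69.8% of core promoter regions higher, mixed directions would also arise among unrelated regions. The share mixed was not compared with such a background, so nothing particular to these start sites is read from it. The smallest gap between neighbouring regions at each such start site had a median of 32 bases. At 8 start sites with mixed directions every region had an unadjusted limma p under 0.05, among them Scrib, Mterf3, Camkk1, Vmp1, Pagr1, Mfsd6 and Usp43. Over all regions 16.4% were higher and 4.52% lower with such a p. The count of 8 was not compared with a background of unrelated regions either, so nothing is read from it. At Vmp1 the region with a difference of -4.28 points lay 17 bases from 1 that was higher by 1.87 points, with 2.16 ± 1.83% against 0.286 ± 0.639% (SD, n = 5 each).

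Ube2z, a ubiquitin-conjugating enzyme, shows this within 1 promoter of 4 regions. Farthest upstream, 140 bases before the start (chromosome 10, 83888932 to 83888993, 13 CpGs), the levels were 5.98, 8.33, 3.61, 5.98 and 1.01% in the paternal high-fat animals and 0, 0, 0.175, 0.513 and 0% in the paternal chow animals. The groups were apart there, and again at the region 94 bases downstream, with 3.47 ± 1.75% against 1.04 ± 0.128%. The region 61 bases downstream was 1.78 ± 1.97% against 0.628 ± 0.524%. At 14 bases upstream the mean was lower, 1.5 ± 1.06% against 3.36 ± 4.95%. That lower mean came from 4HFB alone, at 12.2% against 0.668 to 1.56% in the other paternal chow animals, and without it the difference was 0.359 points in the other direction.

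Kmt2d, a histone H3 methyltransferase, had 6 regions at 2 start sites, 5 with a mean higher by 1.01 to 1.90 points, and at the sixth the mean fell by 1.44 points; the groups overlapped at all 6. Vav2 had 4 regions, all higher, by 1.10 to 2.64 points. Card10, an adaptor of NF-kappa-B signalling, had 4 regions, all higher, by 1.25 to 4.64 points, and its farthest upstream region carried 13 ± 5.77% against 8.36 ± 3.81% while the other 3 had paternal high-fat means of 2.60 to 3.38% (SD, n = 5 each). Without 22HFR the largest of these differences moved from 2.64 to 1.02 points at Vav2 and from 4.64 to 2.60 points at Card10.

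Few core promoters were methylated throughout. The miRNA gene Mir433, of the imprinted Dlk1-Dio3 cluster, had the highest level, with 96.6, 97.0, 95.7, 95.9 and 95.1% in the paternal high-fat animals and 95.4, 88.4, 94.9, 93.6 and 93.5% in the paternal chow animals. Only 4HFB stood apart, lower than the rest. Il17d, a cytokine of the interleukin 17 family, averaged 92.6 ± 4.64% against 87.5 ± 6.15%, and Atf6b, a transcription factor of the endoplasmic reticulum stress response, 88.0 ± 4.09% against 85.5 ± 2.96% (SD, n = 5 each). The membrane protein gene Tmem125 was 74.9 ± 10.9% against 71.4 ± 10.1% (SD, n = 5 each). The unnamed gene AABR07058422.1 was 64.6 ± 10.1% against 53.3 ± 12.3% (SD, n = 5 and 4). All 5 had overlapping groups. Leaving out 1 animal moved the difference by over 1.5 times at each. It became 1.69 points at Mir433 and 1.28 at Atf6b without 4HFB, 3.26 at Il17d without 22HFB and 7.13 at AABR07058422.1 without 6HFB. Tmem125 reversed to -1.08 without 24HFB and to -0.386 without 8HFB.

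Of 724 genes on 18 lists of feeding, metabolic, chromatin and neural function, 118 had a core promoter region, 140 regions in all. The mean was higher at 112 of the 140, 80%, with a median difference of 1.47 points, against 71% and 1.41 points over the table. Some genes gave several of the 140 regions, and the lists were chosen with earlier results of these data known. Nothing particular to the listed genes is therefore read from this share. An unadjusted limma p under 0.05 was seen at 31 regions, 22.1%, against 20.9% of all regions, and none passed adjustment.

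Genes of feeding control were thinly represented. Of the appetite neuropeptides only Trh, which encodes thyrotropin-releasing hormone, had a core promoter region, and it averaged 2.82 ± 0.689% against 4.76 ± 3.89%. The paternal chow mean held 10.8% in 6HFBB, and without that animal the difference moved from -1.93 to -0.434 points. The receptor list had 4 regions of 3 genes, all with a higher mean. Bdnf, a neurotrophin that restrains feeding, measured 4.17, 1.08, 0, 5.85 and 1.72% against 0, 0, 0.666, 1.03 and 0.543%, with 24HFB at 0 (adjusted limma p 0.235 by Benjamini-Hochberg), and without 26HFB the difference moved from 2.12 to 1.30 points. The stress receptor gene Crhr1 had 2 regions, higher by 1.28 and 1.30 points, and the GLP-1 receptor gene Glp1r 1. Of 10 insulin, leptin and nutrient-sensing regions 7 were higher and 3 lower. Socs3, the feedback inhibitor of leptin signalling, averaged 6.16 ± 4.76% against 2.56 ± 1.44%, with 14.3% in 24HFB, and without that animal the difference moved from 3.60 to 1.58 points. Rheb, the activator of mTORC1, averaged 2.98 ± 1.88% against 0.513 ± 0.810%, and Prkab1, a subunit of the AMP-activated kinase, 3.65 ± 2.75% against 1.57 ± 0.789%, a difference of 2.08 points that was 1.10 without 22HFR. All 3 had overlapping groups.

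Metabolic and ribosomal genes were measured at 29 core promoter regions. All 5 lipid regions were higher, among them the fatty acid sensors Ppara, at 2.10 ± 0.71% against 0.738 ± 0.613%, and Pparg, at 3.42 ± 3.28% against 0.882 ± 0.870%, and the carnitine transferase gene Cpt2. Without 22HFR the difference at Pparg moved from 2.53 to 1.26 points. Of 10 respiratory chain regions 5 were higher and 5 lower, and Ndufa9 alone had groups apart. Of 14 ribosomal protein regions 12 were higher and 2 lower, 5 of the higher ones with an unadjusted limma p under 0.05, where 71% of all regions were higher and 16.4% were higher with such a p. Rpl28 averaged 5.65 ± 2.90% against 1.55 ± 1.19% and Rps7 5.65 ± 1.62% against 2.76 ± 1.29% (SD, n = 5 each). Both overlapped between groups.

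Chromatin, repair and imprinted genes are given beside a share of 71% higher over all regions. Of 20 regions of DNA methylation, Polycomb and Trithorax genes 18 were higher and 2 lower. They came from 13 genes, several of them from Kmt2d alone, so they are not independent. The only region of this list with groups apart was lower, at Mbd3, with 0.497 ± 0.458% against 1.71 ± 0.691% (SD, n = 5 each). Besides Cbx2, Rbbp4, a histone-binding subunit of several repressor complexes, averaged 3.97 ± 2.15% against 1.10 ± 0.696%, with 22HFB at 0.219%, and Cbx6 2.79 ± 0.873% against 0.812 ± 0.867%. Of 9 DNA repair regions 7 were higher, among them Xrcc4, a factor of end joining, at 2.34 ± 1.29% against 0.340 ± 0.368%. Ercc2, a helicase of excision repair, had a region at 1.11 ± 1.30% against 4.12 ± 4.49%, with 9.53% in 4HFB and 8.50% in 6HFBB, and without 4HFB the difference moved from -3.01 to -1.65 points. Of 8 regions of imprinted genes 7 were higher, with a median difference of 2.64 points. Phlda2, a maternally expressed growth restrainer of the placenta, measured 4.08, 6.87, 3.83, 4.21 and 4.0% against 1.52, 0.481, 1.68, 1.17 and 1.20%, with groups apart and a difference of 3.39 ± 0.885 points (SE; adjusted limma p 0.235 by Benjamini-Hochberg). Mkrn3, a paternally expressed gene, was at 24.4 ± 4.91% against 17.7 ± 4.38%, and the growth factor gene Igf2 at 6.02 ± 1.87% against 3.68 ± 2.47%. Germline genes had 3 regions, 1 at Hsf2bp and 2 at Tdrd5 in opposite directions, the lower of which moved from -2.0 to -0.0056 points without 4HFB.

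Developmental and synaptic genes of neurons were measured at 39 core promoter regions. Of 15 regions of hypothalamic transcription factors 12 were higher, against 71% of all regions, with groups apart and higher at 3, against 3.93% of all regions; nothing particular to the list is read from so few. Tbx2 measured 14.1, 10.7, 16, 12.8 and 13.6% against 8.09, 10.4, 10.4, 8.86 and 9.25%, just without overlap, and Emx2 averaged 5.33 ± 1.60% against 2.29 ± 1.25%. Of 24 regions of synaptic and channel genes 18 were higher and 6 lower, near the 71% of all regions. Cacna1h, a T-type calcium channel, measured 10, 0.481, 3.24, 14.3 and 11.1% against 0, 0, 5.30, 0 and 0.777%, with overlap in both directions. Nlgn2, an adhesion protein of inhibitory synapses, had regions at 5.97 ± 2.00% against 2.98 ± 0.834% and at 9.68 ± 2.81% against 5.99 ± 1.65%. Of 7 circadian regions 6 were higher, Csnk1d, Arntl and Per3 among them, and so were all 3 of the stress list, Hsf1, Ppp1r15a and Ern1.

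Among genes that mark cell types, the neurofilament gene Nefm measured 4.68, 3.48, 4.35, 2.79 and 3.05% against 0.368, 0.446, 1.32, 0 and 1.23%, with groups apart and a difference of 3.0 ± 0.769 points (SE). Of 5 regions of neuron markers 4 were higher, including the GABA-synthesis gene Gad1 at 3.5 ± 2.34% against 1.37 ± 0.769%. The astrocyte and tanycyte list had 1 region, Sox9, at 4.96 ± 1.12% against 2.75 ± 1.49%. The oligodendrocyte list had 1, Mal, at 5.91 ± 3.62% against 2.39 ± 1.22%, and the list of microglia, vessel, blood and pituitary genes had 1, Kdr, at 2.07 ± 1.72% against 0.341 ± 0.471% (SD, n = 5 each). Without 22HFB the difference at Mal moved from 3.52 to 2.27 points, and without 26HFB that at Gad1 from 2.13 to 1.38. The means of all 3 glial and vessel genes were higher in the paternal high-fat group, and their part in the differences at other promoters was not tested.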

How the data were processed

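Reduced representation bisulfite sequencing libraries were made with a Zymo-Seq kit from arcuate nucleus DNA of 10 rats, 5 per group, per the labels' protocols. The submitters' processing notes name Trim Galore, Bismark and Bowtie for the reads, and regions were called with metilene on both groups, per the file headers. The build and the coverage filter were not given in the sources used here, so coordinates are as deposited and may count starts from 0 or 1. The deposited values were a methylation fraction per animal and region, multiplied here to percent, with the authors' group mean fractions, q-values and p-values, a CpG count, and each region's distance to its start site, a score in bases as deposited. Depth per sample is unknown. Column names show the group and match no sample's title; they served as 5 unnumbered replicates per group.

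Levels of all 8957 regions were fitted with limma 3.58.1 (in R 4.3.3, with eBayes and its trend option) and adjusted by Benjamini-Hochberg over all regions. A region was called apart where no animal of 1 group lay within or beyond the other group's range. This fit was first tested on simulated data with known differences. Group means are means of the animals, and the direction differed from the authors' means at 1 core promoter region. Another 58 core promoter regions on chromosomes without a number were not counted. Promoter windows came from RefSeq, with 1770 of 2275 genes matched; genes all higher, and genes over 20%, matched at under 80% (79.9 and 72.7%), so their windows were not described. Python 3.11.15, pandas 2.3.3, SciPy 1.17.1 and matplotlib 3.10.9 were used.

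Named genes were those with a deposited q under 0.05, the 10 largest differences each way with groups apart, up to 3 per gene list by smallest unadjusted p, the 5 highest levels, the genes with most regions (4, through a tie), and the 2 regions nearest either side of the distance limit. Some regions that the rule named are not reported here. The members and lists were chosen with earlier results of these data known. The alternatives run were the logit scale (offset 0.01), no trend, at least 15 CpGs, limits of 100 and 500 bases, complete regions, the authors' means and leaving out each animal. Leaving out 22HFR and 4HFB, and averaging columns with the same leading number, were chosen after seeing the data.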

Additional observations from a re-analysis of the deposited data

Results flagged for a closer look

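Dixon's criterion was applied to 232 groups of 5 animals (or 4, with a missing value), 226 of them from the 113 named core promoter regions and 6 from the mean, median and share at 0 per animal. In 21 groups, 9.05%, all from named regions, 1 animal stood far from the others. Chance gives about 1 in 20 only for independent values with a normal distribution. Levels here are bounded at 0, come from the same animals throughout, and many regions were named by their values. The share flagged can therefore not be set against that rate. The animal was 4HFB in 7 of them, 22HFR in 4 and 24HFB in 3.

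Animal 4HFB stood apart at Phf13 with 3.63% (others 0.330 to 0.917%), Elk4 with 9.83% (0.648 to 3.27%), Pdss1 with 10.7% (1.89 to 4.19%), Tdrd5 with 12.2% (0.785 to 3.72%), the Kmt2d region at 140546793 with 3.17% (0.745 to 1.40%), the Ube2z region at 83888814 with 12.2% (0.668 to 1.56%) and Mir433 with 88.4% (93.5 to 95.4%). It was the highest paternal chow animal in the first 6 and the lowest at Mir433.

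Animal 22HFR was high at Rtn4rl1 with 5.94% (others 0.272 to 1.40%), Ndufa12 with 6.85% (0 to 1.67%), Phlda2 with 6.87% (3.83 to 4.21%) and the Vav2 region at 5976246 with 10.1% (1.42 to 2.62%). Animal 24HFB was high at Socs3 with 14.3% (2.39 to 5.75%) and at the Ube2z regions at 83888713 with 6.46% (2.04 to 3.22%) and 83888746 with 5.17% (0 to 1.35%). Animal 22HFB was low at Rbbp4 with 0.219% (4.16 to 5.44%) and Ppp1r15a with 0.918% (1.93 to 2.15%).

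Among the other paternal chow animals, 8HFB was high at Erlin2 with 4.93% (0 to 0.859%) and Arntl with 2.74% (0 to 0.605%), 6HFBB at AC139608.1 with 2.44% (0.265 to 0.799%) and Cacna1h with 5.30% (0 to 0.777%), and 2HFB at Wnt1 with 10.7% (4.85 to 5.79%).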

How the results depend on the processing

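No core promoter region passed the adjusted limma threshold under any of the alternatives run. The number with an unadjusted limma p under 0.05 was 561, and it was 718 on the logit scale, 488 without the trend, 413 to 625 on leaving out 1 animal, 421 without 22HFR and 4HFB, and 551 with columns averaged. The share with groups apart was 5.42%, and on leaving out 1 animal it was 7.54 to 9.81%, without 22HFR and 4HFB 11.1% and with columns averaged 14.7%, where by construction fewer values per group can overlap. Over all regions these shares were 5.15%, 7.48 to 9.79%, 10.7% and 14.9% in the same order, so those at core promoters lay near the background. The share higher was 69.8%, and 68.4 to 71.8% on leaving out 1 animal, highest without 4HFB. Over all regions it was 71%, and 69.8 to 72.3% on leaving out 1 animal, likewise highest without 4HFB. The median difference ranged from 0.974 to 1.45 points over all settings, and the difference of the animals' means, 0.823 points, from 0.606 to 0.985 on leaving out 1 animal. Of 113 named regions, 39 moved by over 1.5 times on leaving out 1 animal, 10 of the 17 lower and 29 of the 96 higher, and at 11 of the 17 lower regions 4HFB moved the value most. On leaving out 1 animal the difference at Tmem125 ranged from -1.08 points, reversed, without 24HFB to 6.60, and without 8HFB it was reversed to -0.386. That at the Ube2z region at 83888814 ranged from -2.52 to 0.359, reversed, without 4HFB, and it was reversed to 0.593 without 22HFR and 4HFB. The cause was not tested. No paired analysis was possible because the columns carry no replicate numbers that match the samples' labels. Unknown coverage limits every level: near 2%, a level may rest on few methylated reads.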
